A study of Rattus norvegicus with 12 samples.

Results

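In differentiated smooth muscle cells, 161 genes stood on the same side of the control after knockdown of RBPMS and after knockdown of MBNL1 and MBNL2, 126 of them higher and 35 lower in both. The raised genes included immune receptors and cytokines such as Il1rl1, Cxcl13 and Vcam1, matrix proteins such as Lama3 and Postn, and transporters such as Slc2a9. The lowered genes included Igfbp5, Plxnb1, Ube3b and the endothelin receptor gene Ednra. In proliferative cells 38 raised genes were called higher (30.2%) and 37 lower (29.4%) than in differentiated cells, and 16 lowered genes were called lower (45.7%) and 2 higher (5.71%). Among all tested genes with enough counts to be chosen, 6.85% were called higher and 10.7% lower. Under quantile normalization the raised genes split into 30 higher and 48 lower, beside 6.42% and 11.8% of the genes with enough counts. The choice itself moved with the scaling, and the authors' normalised values would have given 76 raised and 33 lowered genes.

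The genes were picked from the measured values. For each of 33294 genes, counts were divided by the library total and multiplied by 1000000 to give CPM, and group means were taken. A gene had to have a mean of at least 200 counts in D1, RBPMS KD1 or MBNL KD, which 11763 genes had, and CPM ratios to D1 of at least 1.7 in both knockdowns or of at most 0.59 in both. Rbfox2, which also met the lower limits, was set aside. The ratios to D1 are therefore a description of what was chosen, and they carry no test.

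The libraries came from PAC1 cells, a rat smooth muscle line derived from pulmonary artery, as poly(A) RNA in 4 groups of 3. D1 was differentiated PAC1 cells given the control siRNA C2, and P was proliferative PAC1 cells given the same control. RBPMS KD1 was differentiated cells with an siRNA to Rbpms, and MBNL KD was differentiated cells with siRNAs to both Mbnl1 and Mbnl2. Each well of 200000 cells had 90 pmol of siRNA per transfection per the labels, with a second transfection after 24 h and collection 48 h later. The study's methods describe a longer schedule, and they seed more differentiated than proliferative cells per well, both above the number on the labels. No cells without siRNA were analysed here, so that an effect shared by all siRNAs and the state of D1 cannot be told apart. All 12 libraries are of 1 cell line, with 1 siRNA per target and no rescue.

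RBPMS is an RNA-binding protein of differentiated smooth muscle that directs alternative splicing. MBNL1 and MBNL2 are muscleblind proteins with zinc fingers, and they guide splicing, polyadenylation and mRNA localization during differentiation. Smooth muscle cells of the vessel wall can give up their contractile state for a proliferative state with much matrix and cytokine production, and PAC1 cells model that switch. The sense strands of the siRNAs, 5′ to 3′, are shown because they define the groups.
C2 control: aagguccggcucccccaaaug
RBPMS: ggcggcaaagccgagaaggcgaaca
MBNL1 THH2: cacggaauguaaauuugcauu
MBNL2: gaagaguaauugccugcuuuu

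Library totals lay between 80842635 and 90771289 counts, so that 3 counts, taken as the limit of detection for counting error alone, were 0.0331 to 0.0371 CPM. Of all counts above 0, 56.9% were even, and of counts from 1 to 9, 68.9% were, so that many fragments may have been counted once per mate. If so, the limit would be 6 counts. Rbpms mRNA in RBPMS KD1 was 25.3% of D1, Mbnl1 and Mbnl2 in MBNL KD were 24.7% and 30.8%, and Rbpms in MBNL KD and in P was 86.8% and 7.08%. The summed level of 11 smooth muscle markers was 10574 to 11017 CPM in D1, 5349 to 5478 in RBPMS KD1, 8815 to 8882 in MBNL KD and 253 to 269 in P. In bulk libraries fewer cells of a type and less RNA per cell cannot be told apart. The study's methods call the replicates of the knockdowns biological, while the labels do not say how the cultures were separated, and p-values measure the spread between these libraries.

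Every raised gene had all 6 knockdown libraries above all 3 D1 libraries, as had 19.5% of the 11763 genes, and every lowered gene had all 6 below, against 17.3%. The raised genes were 1.701 to 5.81 times the D1 mean in RBPMS KD1 (median 2.09) and 1.71 to 19.0 times in MBNL KD (median 2.51), and 85 of the 126 were further from D1 in MBNL KD. The lowered genes lay at 0.285 to 0.585 of D1 in RBPMS KD1 (median 0.493) and at 0.186 to 0.586 in MBNL KD (median 0.479), with 17 of 35 further from D1 in MBNL KD. Among the genes with the count minimum, 2.82% reached 1.7 in RBPMS KD1 and 5.48% in MBNL KD, and 2.45% and 6.13% were at or under 0.59. In D1, 31 raised genes had under 100 mean counts and no lowered gene had, which follows from the count minimum, since a lowered gene is highest in D1.

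**Figure D1:**
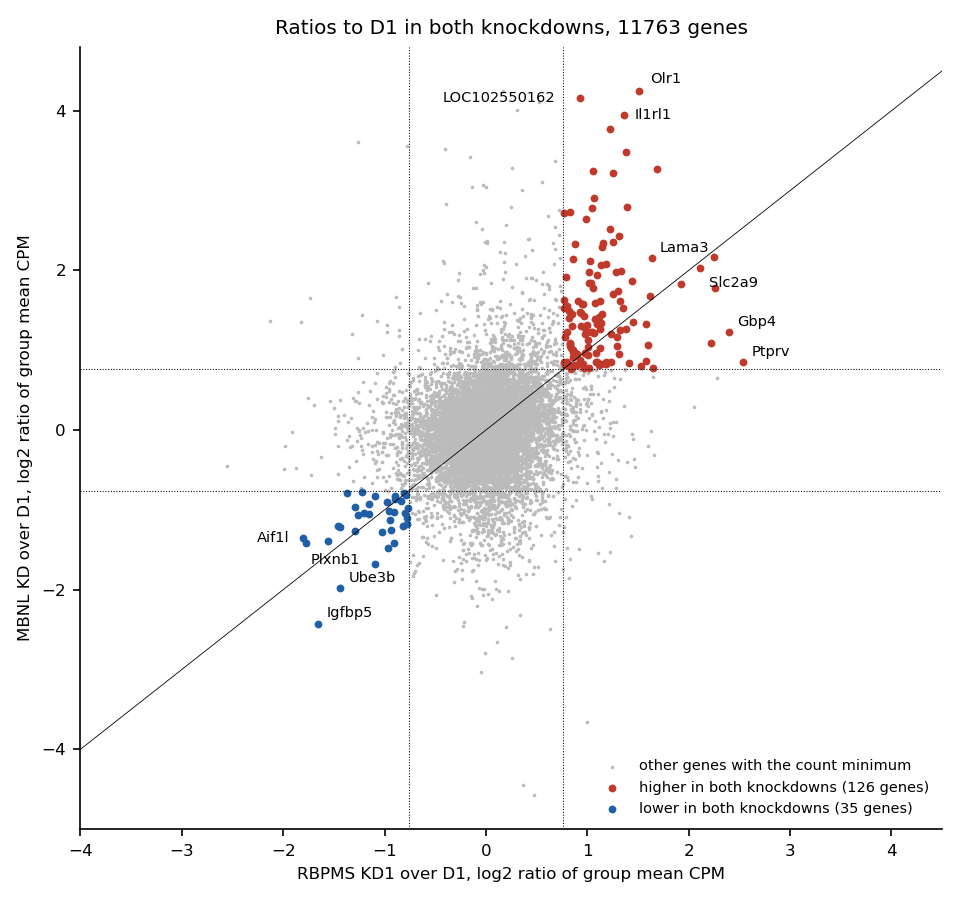
Log2 ratios of group mean CPM to D1 in RBPMS KD1 (x axis) and MBNL KD (y axis) for 11763 genes, with dotted lines at ratios of 1.7 and 0.59 and a line of equal ratios. The 126 raised genes fill the upper right corner and extend furthest along the MBNL KD axis, up to 19.0 times D1 for Olr1, while the 35 lowered genes lie close to the line of equal ratios.

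Genes close to the limits had nearly the same ratios on either side. Socs3 and Ripor2 were just inside, with ratios in RBPMS KD1 of 1.701 and 1.702, and Isca2 was just outside with a ratio under 1.7 there and 2.35 in MBNL KD. Prrg4 was outside with 2.60 in RBPMS KD1 and 1.697 in MBNL KD. Among lowered genes Reep6 and Axl were just inside with their weaker ratios at 0.586 and 0.585, and Lrrc8b and Nr4a3 were just outside at 0.591 each.

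Grouped by textbook role after their values had been seen, 27 of the raised genes encode immune receptors, cytokines and innate sensors. Their ratios to D1 ranged from 1.701 to 5.26 (median 1.97) in RBPMS KD1 and from 1.71 to 19.0 (median 2.40) in MBNL KD. In P, 12 of the 27 were called higher than in D1 and 8 lower by edgeR's quasi-likelihood test (a call needs an adjusted p under 0.05 and a log2 fold change past 1), a comparison that shares the D1 libraries with the choice of the genes. Among the 11762 tested genes with the count minimum, 6.85% were called higher and 10.7% lower in P.

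The chemokine genes were Cxcl1 and Cxcl13. Cxcl13, a B cell attractant, had 2.99, 3.64 and 2.84 CPM in the D1 libraries and 10.1, 9.09 and 9.20 in those of RBPMS KD1. For Cxcl13 the MBNL KD libraries held 7.86, 7.57 and 8.28 and the P libraries 0.229, 0.276 and 0.160. It was 2.99 and 2.50 times D1 in the knockdowns, and all P libraries were under every D1 library (log2 fold change -3.99, SE 0.21, adjusted p = 3.2e-18). Cxcl1, which draws neutrophils, had 1.75, 1.29 and 1.52 CPM in the D1 libraries and 3.26, 2.43 and 2.62 in those of RBPMS KD1. For Cxcl1 the MBNL KD libraries held 2.49, 2.92 and 3.54 and the P libraries 3.77, 4.63 and 3.96. It was called higher in P (log2 fold change 1.27, SE 0.13, adjusted p = 8.5e-11), a call lost under quantile normalization at a log2 fold change of 0.84, and its membership rested on single libraries, since it was lost without D1 replicate 2 or RBPMS KD1 replicate 1.

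Of the receptors, Olr1, the LOX-1 receptor for oxidized LDL, had 1.53, 0.998 and 1.41 CPM in the D1 libraries and 3.53, 4.12 and 3.59 in those of RBPMS KD1. For Olr1 the MBNL KD libraries held 24.5, 25.7 and 24.7 and the P libraries 1.24, 1.68 and 1.66. The MBNL KD libraries stand apart from all others, and the P libraries overlap those of D1 (log2 fold change 0.05, SE 0.18, adjusted p = 0.815). Il1rl1, which encodes the IL-33 receptor ST2, had 0.443, 0.244 and 0.463 CPM in the D1 libraries and 0.773, 1.12 and 1.06 in those of RBPMS KD1. For Il1rl1 the MBNL KD libraries held 5.73, 6.08 and 6.01 and the P libraries 7.67, 7.75 and 7.73. It was low in D1 and RBPMS KD1 and high in MBNL KD and P (log2 fold change 4.16, SE 0.14, adjusted p = 2.1e-23 for P against D1). Il1r1, the receptor for IL-1, had 8.50, 7.89 and 7.78 CPM in the D1 libraries and 15.8, 18.1 and 17.4 in those of RBPMS KD1. For Il1r1 the MBNL KD libraries held 14.9, 14.2 and 14.5 and the P libraries 27.0, 28.2 and 27.3, so that all P libraries lay above all knockdown libraries (log2 fold change 1.60, SE 0.05, adjusted p = 9.4e-24).

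Osmr, which carries the oncostatin M signal, was also above both knockdowns in P, with means ± SD (n = 3 libraries) of 4.74 ± 0.316 CPM for D1, 9.35 ± 0.531 for RBPMS KD1, 11.5 ± 0.387 for MBNL KD and 28.6 ± 0.860 for P (log2 fold change 2.43, SE 0.06, adjusted p = 1.7e-27). Cd180, a Toll-like receptor relative, had 9.77, 7.90 and 8.61 CPM in the D1 libraries and 18.1, 17.3 and 18.2 in those of RBPMS KD1. For Cd180 the MBNL KD libraries held 36.6, 38.7 and 38.4 and the P libraries 1.81, 1.63 and 1.87. Its P libraries were the lowest of all (log2 fold change -2.47, SE 0.10, adjusted p = 2e-21). The neuronal IL-1 receptor relative Il1rapl1 had 0.787, 0.687 and 0.915 CPM in D1 and a count of 0 in all 3 P libraries, at least 23.2-fold lower against a limit of 3 counts per library (11.6-fold against 6 counts), while the knockdown libraries held 1.59 to 2.73 CPM.

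Vcam1, the adhesion molecule that leukocytes bind, had 233, 219 and 233 CPM in the D1 libraries and 426, 418 and 433 in those of RBPMS KD1. For Vcam1 the MBNL KD libraries held 402, 405 and 399.8 and the P libraries 194, 205 and 206. The knockdowns were 1.86 and 1.76 times D1 with no overlap of libraries, and P was slightly under D1 and not called (log2 fold change -0.35, SE 0.03, adjusted p = 3e-13). Cd80, a ligand that costimulates T cells, had 7.72, 7.71 and 7.26 CPM in the D1 libraries and 20.1, 20.1 and 18.9 in those of RBPMS KD1. For Cd80 the MBNL KD libraries held 18.2, 19.1 and 17.1 and the P libraries 6.20, 6.82 and 6.26, where the libraries of the knockdowns overlap and P lies just under D1. Socs3, a feedback inhibitor of cytokine signalling, had means ± SD (n = 3 libraries) of 11.5 ± 0.454 CPM for D1, 19.6 ± 0.149 for RBPMS KD1, 20.8 ± 0.926 for MBNL KD and 14.6 ± 0.716 for P.

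The innate genes Gbp4, Oas1b, Lgals9, Sting1 and Naip5 were also in the group. Gbp4, an interferon-induced GTPase, had 1.40, 1.55 and 1.39 CPM in the D1 libraries and 8.28, 7.55 and 7.01 in those of RBPMS KD1. For Gbp4 the MBNL KD libraries held 3.68, 3.20 and 3.30 and the P libraries 3.07, 4.07 and 3.75. It was highest in RBPMS KD1, and its call in P (log2 fold change 1.16, SE 0.13, adjusted p = 1.5e-09) was lost under quantile normalization, where the log2 fold change was 0.71. Oas1b, of the oligoadenylate synthetase family, had 2.04, 1.82 and 2.38 CPM in the D1 libraries and 6.03, 3.57 and 3.77 in those of RBPMS KD1. For Oas1b the MBNL KD libraries held 5.71, 2.59 and 2.97 and the P libraries 10.4, 11.5 and 10.6. Replicate 1 of each knockdown stood above its other libraries, and Oas1b was no longer a member without MBNL KD replicate 1. Lgals9, or galectin-9, had 4.72, 4.22 and 4.71 CPM in the D1 libraries and 10.4, 6.98 and 6.72 in those of RBPMS KD1. For Lgals9 the MBNL KD libraries held 14.5, 9.40 and 12.3 and the P libraries 15.9, 15.7 and 15.9, with the same libraries highest, and it was no longer a member without RBPMS KD1 replicate 1. Sting1, the adaptor of cytosolic DNA sensing, was 2.20, 1.78 and 4.02 times D1 in RBPMS KD1, MBNL KD and P (log2 fold change 1.84, SE 0.07, adjusted p = 2.9e-21 for P). Naip5, a sensor of bacterial flagellin, was 1.77, 2.07 and 0.331 times D1, and it overlaps its relative Naip6. Gbp4, Oas1b and Naip5 have similar family members, and the sharing of reads among them was not tested.

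Further immune members are given by their ratios to D1 in RBPMS KD1, MBNL KD and P, in that order. Ptafr, the receptor for platelet-activating factor, was at 2.23, 5.07 and 3.35, and Selplg, which encodes the selectin ligand PSGL-1, at 2.55, 2.89 and 4.54. Both were called higher in P. Fcgr2a, an Fc receptor for IgG, was at 1.96, 1.71 and 2.75 and also called higher (log2 fold change 1.29, SE 0.15), a call not followed under other scalings. Masp1, a protease of the lectin pathway of complement, was at 1.91, 2.77 and 0.157 and called lower in P. It overlaps Rtp4, whose ratios were 2.13 and 0.73 in the knockdowns. Cd200r1l, of the CD200 receptor family, was at 2.49, 5.38 and 0.317, Ms4a6c at 1.72, 3.77 and 0.184 and Ptpn22, a phosphatase that restrains lymphocyte signalling, at 1.81, 2.00 and 0.0982, and these 3 were called lower in P. Il10rb, a shared chain of IL-10 family receptors, was at 1.79, 1.71 and 1.21 and Cd276, or B7-H3, at 1.84, 1.75 and 0.773, neither of them called.

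Among markers of leukocytes, Ptprc, Tyrobp, Itgam and Adgre1 were at or near 0 in every group, while Cd14 was not. Over 10 macrophage markers the sum was 56.0 to 60.5 CPM in D1, 83.0 to 84.9 in RBPMS KD1, 53.1 to 56.0 in MBNL KD and 53.04 to 55.6 in P, almost all of it from Cd14, and 5 of the 10 never passed 10 counts. Cd14 reached 7538 counts in RBPMS KD1 libraries, against 5337 in D1, 4641 in P and 4871 in MBNL KD. Csf1r, the receptor for colony-stimulating factor of macrophages, reached 26 counts in D1 and 62 in MBNL KD, where it was called higher, and Cd68 reached 72 to 95 counts over the groups. Tyrobp was at 0 in all 12 libraries and Ptprc, which encodes CD45, had at most 4 counts. The 7 T cell markers in the table summed to at most 1.12 CPM in any library. The endothelial markers summed to 9.76 to 10.7 CPM in D1, 12.8 to 13.7 in RBPMS KD1, 17.8 to 18.8 in MBNL KD and 26.4 to 26.6 in P, and the epithelial markers to 11.6 to 12.4, 11.3 to 12.3, 17.7 to 19.0 and 6.01 to 6.21. Most endothelial counts came from Egfl7 and Erg, while Pecam1 had at most 14 counts and Kdr at most 4. Most epithelial counts came from Grhl2, while Epcam, Cdh1, Krt5 and Krt14 had at most 12. The skeletal and cardiac muscle markers summed to 7.41 to 8.43 CPM in D1, 4.35 to 4.88 in RBPMS KD1, 19.2 to 21.7 in MBNL KD and 10.7 to 12.04 in P. These 12 markers did not move together. Most of the counts in MBNL KD came from Myh3 and Tnnt2, with up to 939 and 805 against 335 and 263 in D1. Ckm was called lower in MBNL KD, with up to 39 counts against 103 in D1. Myod1, a master regulator of skeletal muscle, had a count of 0 in every D1 and RBPMS KD1 library and up to 64 in MBNL KD. Its relatives Myog and Myf5 had at most 8 and 4 counts in any library. The neuronal and glial markers summed to 20.1 to 22.8, 18.4 to 19.1, 21.9 to 23.7 and 10.02 to 10.4. The part of these cell types in the results was not tested.

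For 101 of the 126 raised genes and 32 of the 35 lowered genes, RefSeq promoter sequences of GRCr8, from 250 bases before to 50 after the gene start, were searched on both strands. Several promoters were listed for 16 of the raised genes (15.8%), 2 of the lowered genes (6.25%) and 6.70% of the other genes with the count minimum. A gene was counted once if any of its promoters matched, so that a gene with several had more chances of a match. The interferon-stimulated response element (ISRE, searched as a pair of GAAA blocks with 2 free bases between them) was found for 8 raised genes (7.92%), namely Ms4a7, Lgals9, Cd80, Oas1b, Vcam1, Gbp4, Pltp and LOC120102879, and for 0 of 32 lowered genes. It was found for 3.12% of 8939 other genes with the count minimum and for 4.12% of all 27457 genes with a promoter. The NF-kappaB site was found for 12 raised genes (11.9%), among them Cxcl1, Vcam1, Nox1, Tnn and Pltp, and for 1 lowered gene, against 3.14% and 2.61%. The AP-1 site (TGACTCA or TGAGTCA) was found for 8 raised genes (7.92%), including Lama3, Olr1 and Gbp4, and for 2 lowered genes, against 3.49% and 5.04%. For the gamma-activated site (GAS, TTCNNNGAA) the share of raised genes was 8.91%, against 7.18% and 9.39%. The CArG box was found for 2 raised genes (1.98%), against 1.51% and 1.77%, and the cAMP response element (TGACGTCA) for 1 (0.990%), against 3.42% and 2.00%. The GAS, AP-1, CArG and cAMP response element letters read alike on both strands and were counted once. Among the 85 raised genes with 1 promoter, a count added after seeing the data, 10.6% had the NF-kappaB site, 7.06% the ISRE and 8.24% the AP-1 site, against 2.95%, 2.81% and 3.09% of the other genes with the count minimum.

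Promoters of raised genes also had fewer CpG dinucleotides, with a median of 7 against 21.5 in lowered promoters and 21 in the other genes, and a median GC content of 55.3% against 62.5% and 61.3%. The part of base composition in the motif shares was not tested, and a match is only a match of letters. The ISRE of Oas1b occurs as a pair sharing bases. Promoters of genes from the immune group are shown (GRCr8, 5′ to 3′ on the strand of the gene), with capitals on the ISRE in Vcam1, Gbp4 and Oas1b, the NF-kappaB site in Vcam1 and Cxcl1, the AP-1 site in Gbp4 and the GAS in Oas1b.
Vcam1, chr2:206742734-206743033, strand -: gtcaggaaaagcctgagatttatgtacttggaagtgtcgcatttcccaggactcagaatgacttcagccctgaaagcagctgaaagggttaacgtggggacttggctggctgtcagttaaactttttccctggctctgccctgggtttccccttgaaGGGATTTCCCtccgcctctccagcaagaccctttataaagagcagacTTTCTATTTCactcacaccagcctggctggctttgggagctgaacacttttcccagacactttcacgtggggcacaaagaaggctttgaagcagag
Gbp4, chr2:233978236-233978535, strand +: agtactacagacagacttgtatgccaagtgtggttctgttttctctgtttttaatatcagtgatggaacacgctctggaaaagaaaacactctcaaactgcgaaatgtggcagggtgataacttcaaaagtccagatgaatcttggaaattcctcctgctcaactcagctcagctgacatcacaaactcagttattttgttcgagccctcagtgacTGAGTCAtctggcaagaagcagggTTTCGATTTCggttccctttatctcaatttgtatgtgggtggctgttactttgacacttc
Oas1b, chr12:41395803-41396102, strand -: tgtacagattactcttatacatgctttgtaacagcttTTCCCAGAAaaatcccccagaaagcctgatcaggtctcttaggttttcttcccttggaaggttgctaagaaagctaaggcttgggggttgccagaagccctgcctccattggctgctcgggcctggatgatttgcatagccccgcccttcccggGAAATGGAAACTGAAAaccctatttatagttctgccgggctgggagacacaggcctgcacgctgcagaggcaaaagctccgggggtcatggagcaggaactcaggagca
Cxcl1, chr14:17479272-17479571, strand -: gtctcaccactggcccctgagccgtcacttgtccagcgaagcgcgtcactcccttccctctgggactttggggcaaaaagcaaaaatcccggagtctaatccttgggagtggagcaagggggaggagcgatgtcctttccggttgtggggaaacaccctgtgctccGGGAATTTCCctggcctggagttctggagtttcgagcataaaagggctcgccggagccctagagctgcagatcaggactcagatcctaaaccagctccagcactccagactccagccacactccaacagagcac

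**Figure D2:**
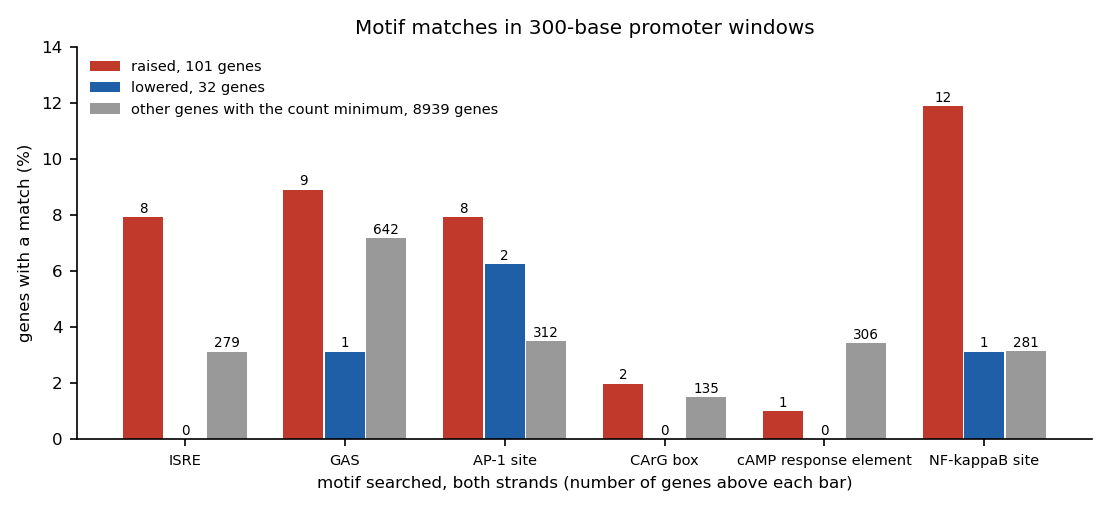
Percentage of genes with at least 1 match to each motif in any of their promoters, for raised genes (red), lowered genes (blue) and other genes with the count minimum (grey), with the number of genes above each bar. Raised genes have the higher share for the NF-kappaB site (11.9% against 3.14%), the ISRE (7.92% against 3.12%) and the AP-1 site (7.92% against 3.49%).

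Extracellular matrix, its processing and adhesion accounted for 12 raised genes, with 5 called higher and 5 called lower in P, beside 6.85% and 10.7% of genes with the count minimum. Lama3, a chain of the basement membrane laminin-332, had 4.37, 3.75 and 4.01 CPM in the D1 libraries and 12.6, 12.4 and 12.7 in those of RBPMS KD1. For Lama3 the MBNL KD libraries held 18.3, 17.8 and 17.8 and the P libraries 108, 111 and 105. All 4 groups were separate, in the order D1, RBPMS KD1, MBNL KD and P, and P was 26.7 times D1 (log2 fold change 4.57, SE 0.05, adjusted p = 1.7e-38). Postn, or periostin, a matricellular protein of remodelling tissue, had 12.2, 11.8 and 12.9 CPM in the D1 libraries and 28.5, 29.1 and 30.4 in those of RBPMS KD1. For Postn the MBNL KD libraries held 61.8, 65.3 and 62.6 and the P libraries 90.7, 82.3 and 82.7, in the same order (log2 fold change 2.62, SE 0.04, adjusted p = 1.3e-32 for P). Fbln7, a fibulin, was 2.45, 2.08 and 18.04 times D1 in RBPMS KD1, MBNL KD and P (log2 fold change 4.01, SE 0.05, adjusted p = 2.4e-35 for P).

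Other matrix genes went the opposite way in P. Frem1, a basement membrane adhesion protein, had 18.4, 20.1 and 19.2 CPM in the D1 libraries and 40.8, 39.3 and 38.1 in those of RBPMS KD1. For Frem1 the MBNL KD libraries held 69.0, 70.2 and 68.1 and the P libraries 0.343, 0.391 and 0.594. The P libraries were 2.30% of the D1 mean (log2 fold change -5.60, SE 0.11, adjusted p = 1.2e-30). Tnc, or tenascin C, had 361, 356 and 357 CPM in the D1 libraries and 626, 612 and 617 in those of RBPMS KD1. For Tnc the MBNL KD libraries held 650.4, 633 and 625 and the P libraries 143, 149 and 141, with P under all other libraries (log2 fold change -1.48, SE 0.03, adjusted p = 6.9e-32). Aspn, or asporin, a small leucine-rich proteoglycan, had 39.3, 38.4 and 39.98 CPM in the D1 libraries and 119.7, 125 and 124 in those of RBPMS KD1. For Aspn the MBNL KD libraries held 68.8, 67.9 and 65.1 and the P libraries 14.3, 11.9 and 12.3, and its reads may include some of Cenpp, which overlaps it (log2 fold change -1.78, SE 0.05, adjusted p = 8.2e-26 for P).

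Comp, cartilage oligomeric matrix protein, was 1.80 and 2.48 times D1 in the knockdowns and its P libraries overlapped those of D1 (log2 fold change -0.16, SE 0.11, adjusted p = 0.166). P4ha2, a prolyl hydroxylase that matures collagen, had 124, 117 and 121 CPM in the D1 libraries and 281, 291 and 278 in those of RBPMS KD1. For P4ha2 the MBNL KD libraries held 223, 216 and 213 and the P libraries 384, 383 and 376 (log2 fold change 1.49, SE 0.03, adjusted p = 5.5e-32 for P). Of the remaining members, Tnn was 1.93 and 2.99 times D1 in the knockdowns and 0.119 of D1 in P, Pkp2 was 1.98, 6.26 and 3.18 times D1, Col17a1 was 2.09 and 7.48 times D1, and Cemip was 2.12 and 1.96 times D1.

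In the group of signalling genes, receptors and transcription regulators, 6 of 21 were called higher and 7 lower in P, where the background shares were 6.85% and 10.7%. Id1, an inhibitor of basic helix-loop-helix factors and a target of BMP, had 5.00, 4.76 and 4.60 CPM in the D1 libraries and 9.13, 8.76 and 7.66 in those of RBPMS KD1. For Id1 the MBNL KD libraries held 30.3, 33.7 and 31.8 and the P libraries 40.6, 40.8 and 38.4. RBPMS KD1 lay between D1 and MBNL KD, and P was highest (log2 fold change 2.89, SE 0.05, adjusted p = 4e-31 for P). Fst, follistatin, which binds activins, had 18.2, 17.4 and 17.9 CPM in the D1 libraries and 34.2, 35.7 and 35.1 in those of RBPMS KD1. For Fst the MBNL KD libraries held 34.0, 34.3 and 35.6 and the P libraries 32.02, 28.3 and 28.8, and it overlaps LOC120100717, whose ratios were 2.01 and 2.06. Mcf2, a guanine nucleotide exchange factor, had 1.25, 1.37 and 1.60 CPM in the D1 libraries and 5.32, 5.73 and 5.05 in those of RBPMS KD1. For Mcf2 the MBNL KD libraries held 5.51, 4.64 and 4.87 and the P libraries 0.846, 0.966 and 1.27, where the knockdown libraries overlap each other and the P libraries overlap those of D1 (log2 fold change -0.62, SE 0.19, adjusted p = 0.00345; called lower under quantile normalization at -1.09). Nox1, a superoxide-producing NADPH oxidase, had 0.288, 0.255 and 0.209 CPM in the D1 libraries and 0.905, 0.760 and 0.760 in those of RBPMS KD1. For Nox1 the MBNL KD libraries held 2.24, 2.49 and 2.51 and the P libraries 0.618, 0.874 and 0.663.

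Nox1 was called higher in P (log2 fold change 1.35, SE 0.29, adjusted p = 0.00011), but under quantile normalization its log2 fold change was 0.78 and it was not called, and Cstf2, which overlaps it, had ratios to D1 of 0.62 and 1.37 in the knockdowns and 3.42 in P. Reads of Nox1 and Cstf2 may not be told apart, and the part of Cstf2 in the values of Nox1 was not tested. Ptprv, a receptor-type phosphatase, was the member with the highest ratio in RBPMS KD1 and had 3.44, 3.39 and 2.7 CPM in the D1 libraries and 18.8, 19.1 and 17.5 in those of RBPMS KD1. For Ptprv the MBNL KD libraries held 5.23, 6.14 and 5.86 and the P libraries 0.320, 0.368 and 0.411. RBPMS KD1 stood apart and P was lowest (log2 fold change -3.28, SE 0.18, adjusted p = 2.4e-17 for P), and the gene was no longer a member without D1 replicate 3. Lima1, an actin-bundling LIM protein, had means ± SD (n = 3 libraries) of 97.9 ± 2.20 CPM for D1, 267 ± 3.64 for RBPMS KD1, 249 ± 7.33 for MBNL KD and 288 ± 5.07 for P, so that P was above every other library (log2 fold change 1.39, SE 0.03, adjusted p = 5.3e-31). Rab3b, a small GTPase of regulated secretion, was 1.91, 2.78 and 17.98 times D1 in RBPMS KD1, MBNL KD and P (log2 fold change 4.0, SE 0.04, adjusted p = 3.2e-37 for P). S100a14, a calcium-binding S100 protein, was 2.62 and 6.97 times D1 in the knockdowns, and Tfec, a transcription factor of the MiT family, 2.33 and 13.6 times.

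The other signalling members lay on both sides of D1 in P. Ppp2r2c, a regulatory subunit of protein phosphatase 2A, was at 1.80, 2.75 and 13.5 times D1 in RBPMS KD1, MBNL KD and P, and Sema3b, a secreted semaphorin, at 1.98, 1.95 and 2.57. Both were called higher in P. Sema3b overlaps LOC120094260, whose ratios were 2.11 and 2.11 in the knockdowns. Rhod, a small GTPase of endosomes, was at 1.74, 1.80 and 0.312, Bach2, a BTB and bZIP repressor, at 1.78, 2.13 and 0.527, Rasgrp3, a Ras exchange factor, at 2.06, 2.34 and 0.489, Inha, the inhibin alpha chain, at 1.78, 2.11 and 0.498 and Trabd2b, a metalloprotease that acts on Wnt proteins, at 1.91, 2.48 and 0.381, and these 5 were called lower in P. Rxfp1, the relaxin receptor, was at 2.07, 6.89 and 0.757, with no call.

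Transporters, pumps and channels made up 9 raised genes. Slc2a9, a urate transporter, had 0.820, 1.04 and 0.981 CPM in the D1 libraries and 4.24, 3.98 and 4.12 in those of RBPMS KD1. For Slc2a9 the MBNL KD libraries held 3.80, 3.84 and 3.98 and the P libraries 0.538, 0.368 and 0.457. The libraries of the knockdowns lay between 3.80 and 4.24 CPM and P was under D1 (log2 fold change -1.23, SE 0.24, adjusted p = 3.4e-05). Atp2a3, the SERCA3 calcium pump, had 0.133, 0.222 and 0.375 CPM in the D1 libraries and 0.464, 0.463 and 0.595 in those of RBPMS KD1. For Atp2a3 the MBNL KD libraries held 2.42, 2.46 and 2.07 and the P libraries 0.743, 0.828 and 0.960. The D1 libraries held only 12 to 34 counts of it, and it was lost as a member without MBNL KD replicate 1 or 2. Mcoln3, an endolysosomal cation channel, was 1.84 and 5.02 times D1 in the knockdowns and 0.188 of D1 in P.

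Among the other transporters, Slc7a9, a subunit of the cystine carrier, was at 2.21, 2.73 and 3.88 times D1 in RBPMS KD1, MBNL KD and P, and Slc28a2, a nucleoside carrier, at 2.05, 2.34 and 4.72, both called higher in P. Atp1a4, a sodium pump subunit of sperm, was at 1.83, 1.95 and 0.0746 and called lower. Clcn4, a chloride and proton exchanger, was at 2.46, 3.36 and 0.695 and Slc22a17 at 2.51, 2.38 and 0.655, with no call in P.

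Metabolic and repair enzymes were 16 raised genes, of which 2 were called higher, 3 lower and 11 not called in P, beside 6.85% and 10.7% of genes with the count minimum called higher and lower. Akr1c12 and Akr1c19 are neighbouring aldo-keto reductase genes of 1 multigene family, so that their reads may be shared out uncertainly. Akr1c12 had 9.36, 10.1 and 9.83 CPM in the D1 libraries and 21.5, 23.6 and 24.0 in those of RBPMS KD1. For Akr1c12 the MBNL KD libraries held 22.0, 22.0 and 23.5 and the P libraries 8.57, 8.55 and 8.76, and Akr1c19 was 2.99 and 1.82 times D1 in the knockdowns. Alas1, the first enzyme of heme synthesis, was 2.18 and 2.05 times D1 in RBPMS KD1 and MBNL KD and 0.436 of D1 in P (log2 fold change -1.37, SE 0.04, adjusted p = 2.5e-25). Ogg1, which removes oxidized guanine from DNA, had 6.03, 6.04 and 6.58 CPM in the D1 libraries and 12.9, 13.2 and 13.4 in those of RBPMS KD1. For Ogg1 the MBNL KD libraries held 16.3, 17.1 and 15.5 and the P libraries 5.54, 5.40 and 5.22, and it overlaps Camk1, whose ratios were 1.27 and 0.71. Ces2c, a carboxylesterase, was 2.71 and 3.65 times D1 in the knockdowns.

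Further enzymes included Gk5, a glycerol kinase, at 1.86, 1.93 and 6.39 times D1 in RBPMS KD1, MBNL KD and P, and Shpk, sedoheptulokinase, at 2.20, 2.53 and 2.30, both called higher in P. The call of Shpk was close to the threshold (log2 fold change 1.04, SE 0.09) and was not followed under other scalings. Cds1, which makes CDP-diacylglycerol, was at 2.27, 4.24 and 0.502 and Glb1l, related to beta-galactosidase, at 2.28, 1.78 and 0.463, both called lower. Enpep, the aminopeptidase that cleaves angiotensin II, was at 2.03, 3.58 and 1.05, Adpgk, an ADP-dependent glucokinase, at 1.91, 1.79 and 1.26 and Lpin3, a phosphatidate phosphatase, at 1.76, 2.81 and 1.49, none of them called.

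Of the 8 other named raised genes, Nckap5 had 1.17, 0.754 and 0.937 CPM in the D1 libraries and 2.91, 2.95 and 2.91 in those of RBPMS KD1. For Nckap5 the MBNL KD libraries held 3.02, 2.99 and 3.19 and the P libraries 7.42, 7.03 and 8.08 (log2 fold change 2.81, SE 0.12, adjusted p = 2.1e-20 for P), and Zcwpw1, a histone reader of meiotic cells, was 2.01 and 1.92 times D1 in the knockdowns and 19.8 times in P (log2 fold change 4.14, SE 0.05, adjusted p = 1.6e-36). Ankdd1a, an ankyrin and death domain protein, had 0.621, 0.621 and 0.661 CPM in the D1 libraries and 3.00, 3.08 and 3.04 in those of RBPMS KD1. For Ankdd1a the MBNL KD libraries held 2.19, 2.07 and 2.30 and the P libraries 1.38, 0.885 and 1.20. A further 33 raised genes had only LOC or RGD symbols, with ratios of 1.702 to 4.77 (median 2.17) in RBPMS KD1 and 1.75 to 17.9 (median 2.7) in MBNL KD, and 8 of them were called higher and 10 lower in P (background 6.85% and 10.7%). LOC120102879, which led the raised genes by its weaker ratio, had 0.864, 0.732 and 1.10 CPM in the D1 libraries and 4.41, 4.22 and 4.24 in those of RBPMS KD1. For LOC120102879 the MBNL KD libraries held 3.92, 4.03 and 4.21 and the P libraries 0.755, 0.552 and 0.743, but it overlaps LOC102551410, whose ratios were 3.67 and 4.14. Of the 115 raised genes found in RefSeq, 21 (18.3%) were long noncoding RNAs, against 2.11% of 10955 genes with the count minimum, and all 35 lowered genes were protein-coding. These sets were not matched for expression level. The median D1 mean was 3.18 CPM for raised genes and 54.5 for lowered genes, and the part of expression level in these shares was not tested.

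**Figure D3:**
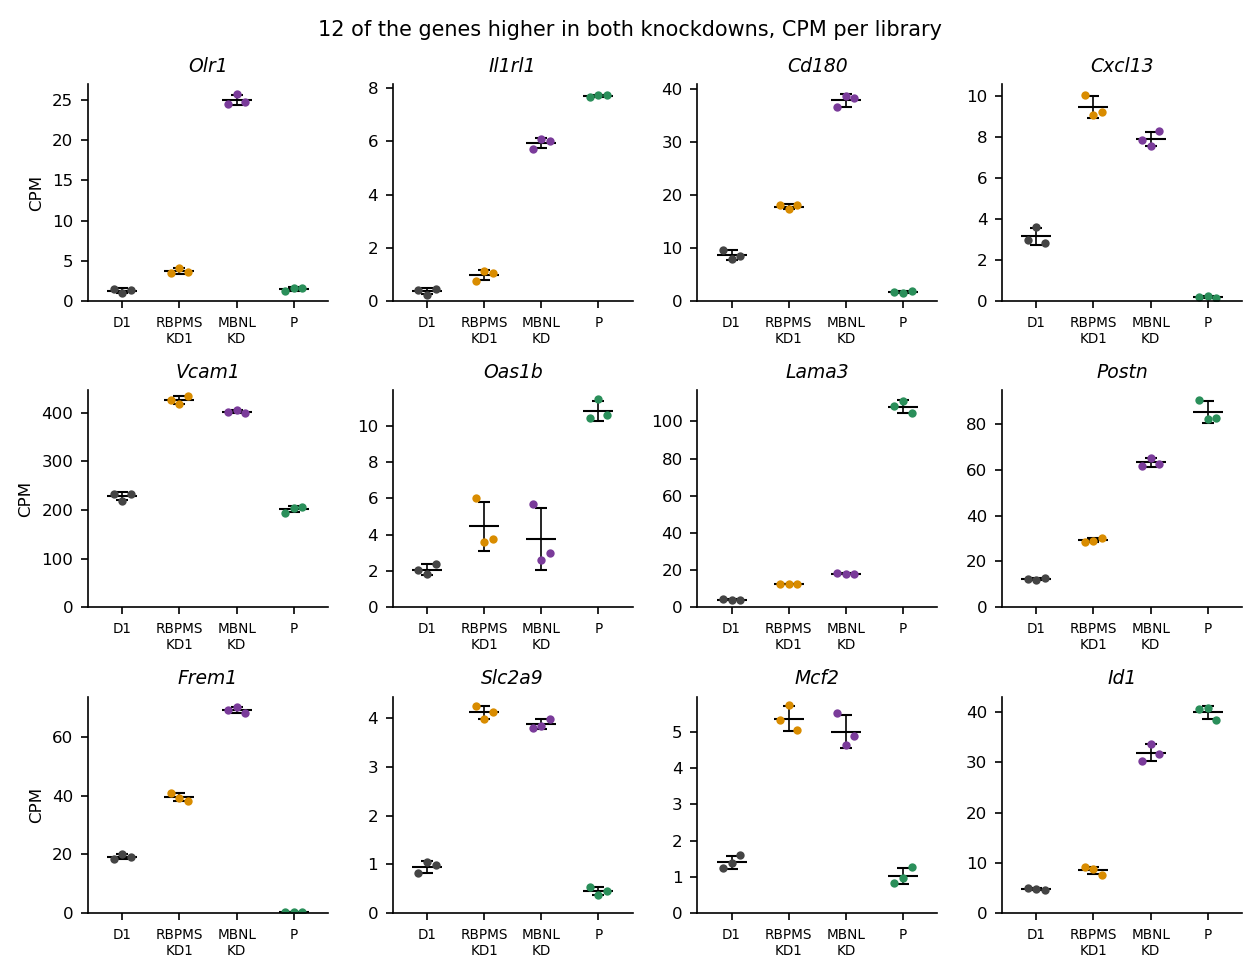
CPM (y axis, from 0) in each of the 3 libraries of D1, RBPMS KD1, MBNL KD and P for 12 raised genes, with the mean and SD as bars. Both knockdowns lie above D1 in all panels, while P is above them for Il1rl1, Oas1b, Lama3, Postn and Id1, near D1 for Olr1 and Vcam1, overlapping D1 for Mcf2 (called lower under quantile normalization), and under D1 for Cd180, Cxcl13, Frem1 and Slc2a9.

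Among the 35 lowered genes, 9 encode receptors, ligands and signalling proteins, and 5 of these were called lower and 1 higher in P, beside 10.7% and 6.85% of genes with the count minimum. Igfbp5, which binds insulin-like growth factors, had 7.38, 7.195 and 7.11 CPM in the D1 libraries and 2.80, 2.07 and 2.01 in those of RBPMS KD1. For Igfbp5 the MBNL KD libraries held 1.66, 1.29 and 1.09 and the P libraries 3.44, 3.10 and 3.27. It had the lowest ratio in MBNL KD of all lowered genes, and P lay between the knockdowns and D1 (log2 fold change -1.31, SE 0.08, adjusted p = 1.2e-15). Ednra, the endothelin receptor through which endothelin-1 contracts vessels, had 60.7, 60.5 and 57.8 CPM in the D1 libraries and 34.4, 33.9 and 33.7 in those of RBPMS KD1. For Ednra the MBNL KD libraries held 34.5, 34.2 and 34.5 and the P libraries 24.7, 22.0 and 24.3. The knockdown libraries lay within 1 CPM of each other and P was lower still (log2 fold change -1.50, SE 0.04, adjusted p = 2.3e-26). Plxnb1, a semaphorin 4D receptor, had 62.8, 64.5 and 58.7 CPM in the D1 libraries and 21.7, 21.2 and 20.2 in those of RBPMS KD1. For Plxnb1 the MBNL KD libraries held 24.5, 23.1 and 23.3 and the P libraries 9.38, 9.92 and 9.05, and P was 15.2% of D1 (log2 fold change -2.88, SE 0.05, adjusted p = 6.4e-33).

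Axl, a receptor tyrosine kinase that binds Gas6, had 258, 256 and 265 CPM in the D1 libraries and 157, 147 and 152 in those of RBPMS KD1. For Axl the MBNL KD libraries held 134, 130.3 and 133 and the P libraries 395, 404 and 406. It was under D1 in the knockdowns and above it in P, where the change was short of the fold threshold (log2 fold change 0.46, SE 0.02, adjusted p = 4.8e-18). Errfi1, a feedback inhibitor of the EGF receptor, was 56.7% and 43.5% of D1 in the knockdowns and 10.2% in P (log2 fold change -3.46, SE 0.03, adjusted p = 3.9e-40), and LOC102556316, which overlaps it, had ratios of 0.44 and 0.40. Stc1, a secreted glycoprotein hormone, was 53.3%, 37.4% and 11.04% of D1 in RBPMS KD1, MBNL KD and P (log2 fold change -3.35, SE 0.07, adjusted p = 4.2e-29 for P). Nxph4, a neurexin ligand, had 4.58, 5.50 and 4.40 CPM in the D1 libraries and 1.7, 2.35 and 2.46 in those of RBPMS KD1. For Nxph4 the MBNL KD libraries held 2.76, 2.31 and 2.57 and the P libraries 14.04, 16.2 and 14.7, so that P was 3.10 times D1 (log2 fold change 1.47, SE 0.08, adjusted p = 4.3e-18).

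The nuclear, phosphatase and ubiquitin genes were 5. Ube3b, an E3 ubiquitin ligase, had 103, 104 and 101 CPM in the D1 libraries and 36.8, 37.6 and 39.4 in those of RBPMS KD1. For Ube3b the MBNL KD libraries held 25.7, 26.4 and 26.1 and the P libraries 101, 105 and 99.2. P overlapped D1 while both knockdowns were far under (log2 fold change -0.18, SE 0.03, adjusted p = 8.4e-07 for P). Nacc2, a BTB-domain repressor, had 245, 249 and 240.5 CPM in the D1 libraries and 116, 111 and 117 in those of RBPMS KD1. For Nacc2 the MBNL KD libraries held 79.1, 72.4 and 77.5 and the P libraries 83.1, 86.2 and 83.3, so that P lay near MBNL KD (log2 fold change -1.71, SE 0.03, adjusted p = 4.5e-33). Nxt2, an mRNA export factor, had 5.34, 6.28 and 5.51 CPM in the D1 libraries and 1.60, 1.697 and 1.72 in those of RBPMS KD1. For Nxt2 the MBNL KD libraries held 2.09, 1.94 and 2.40 and the P libraries 8.94, 9.04 and 8.97. Ankrd52, a regulatory subunit of protein phosphatase 6, was 36.3% and 43.6% of D1 in the knockdowns. Its gene span overlaps that of Slc39a5, a zinc transporter gene on the other strand that was 45.0% and 48.1% of D1. The strand setting is not given in the sources used here, so reads from any shared stretch may not be told apart.

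Cytoskeletal and junction genes were also 5. Aif1l, an actin-bundling protein, had 13.2, 13.4 and 12.9 CPM in the D1 libraries and 3.98, 3.77 and 3.50 in those of RBPMS KD1. For Aif1l the MBNL KD libraries held 4.67, 5.34 and 5.41 and the P libraries 4.01, 4.07 and 4.52 (log2 fold change -1.81, SE 0.07, adjusted p = 1.2e-21 for P). Sh3d19, an adaptor that binds ADAM proteases, had 34.0, 35.3 and 34.8 CPM in the D1 libraries and 19.4, 19.3 and 19.5 in those of RBPMS KD1. For Sh3d19 the MBNL KD libraries held 18.5, 19.0 and 18.8 and the P libraries 92.2, 93.0 and 94.6, lowest in the knockdowns and 2.69 times D1 in P (log2 fold change 1.26, SE 0.03, adjusted p = 4e-27). Mical2, an oxidase that acts on actin, was 51.6% and 49.4% of D1 in the knockdowns, Cgnl1, a junction protein, 51.2% and 36.0%, and Tuba1a, an alpha-tubulin with near copies, 53.5% and 55.1%.

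Of the metabolic genes and transporters, Pfkl, the liver form of phosphofructokinase in glycolysis, had 246, 251 and 247 CPM in the D1 libraries and 109, 109 and 105.6 in those of RBPMS KD1. For Pfkl the MBNL KD libraries held 125, 121 and 117 and the P libraries 364, 383 and 359. It was under D1 in both knockdowns and above D1 in P, short of the fold threshold (log2 fold change 0.40, SE 0.03, adjusted p = 8.6e-16). Slc19a1, the reduced folate carrier, was 40.9% and 41.5% of D1, and MBNL KD differed from RBPMS KD1 by a fitted log2 fold change of -0.02 with an SE of 0.08. Cenpf, a kinetochore protein of dividing cells, had 122, 121 and 125 CPM in the D1 libraries and 65.3, 59.5 and 67.1 in those of RBPMS KD1. For Cenpf the MBNL KD libraries held 52.5, 50.5 and 50.8 and the P libraries 182, 189 and 177. Podxl2, an L-selectin ligand, was 36.8%, 42.9% and 51.2% of D1 in RBPMS KD1, MBNL KD and P, Ctxn1 41.6%, 47.9% and 22.0%, and Reep6, which shapes the endoplasmic reticulum, 42.9%, 58.6% and 7.50%.

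Further lowered genes are given as ratios to D1 in RBPMS KD1, MBNL KD and P. Nfib, a transcription factor of the nuclear factor I family, was at 0.469, 0.565 and 0.531 and called lower in P, as were Abcg4, a sterol transporter, at 0.538, 0.562 and 0.411 and B4galt2, a galactosyltransferase, at 0.585, 0.464 and 0.521. Map2k6, the kinase that activates p38, was at 0.520, 0.456 and 1.00, Antxr2, an anthrax toxin receptor that binds matrix, at 0.508, 0.538 and 1.66 and Dpyd, which breaks down pyrimidines, at 0.585, 0.444 and 2.01. In the secretory pathway Sec23a, a COPII coat protein, was at 0.493, 0.412 and 0.781 and Mlec, a lectin of the endoplasmic reticulum, at 0.534, 0.492 and 1.29. Xrcc2, a DNA repair protein, was at 0.386, 0.580 and 1.06 and Spag5, a spindle protein, at 0.579, 0.570 and 0.954. None of these 7 was called in P. Hap1, a huntingtin partner, was at 0.576, 0.487 and 0.484 and called lower, and Ccdc92, a coiled-coil protein, at 0.408, 0.515 and 0.675 with no call.

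**Figure D4:**
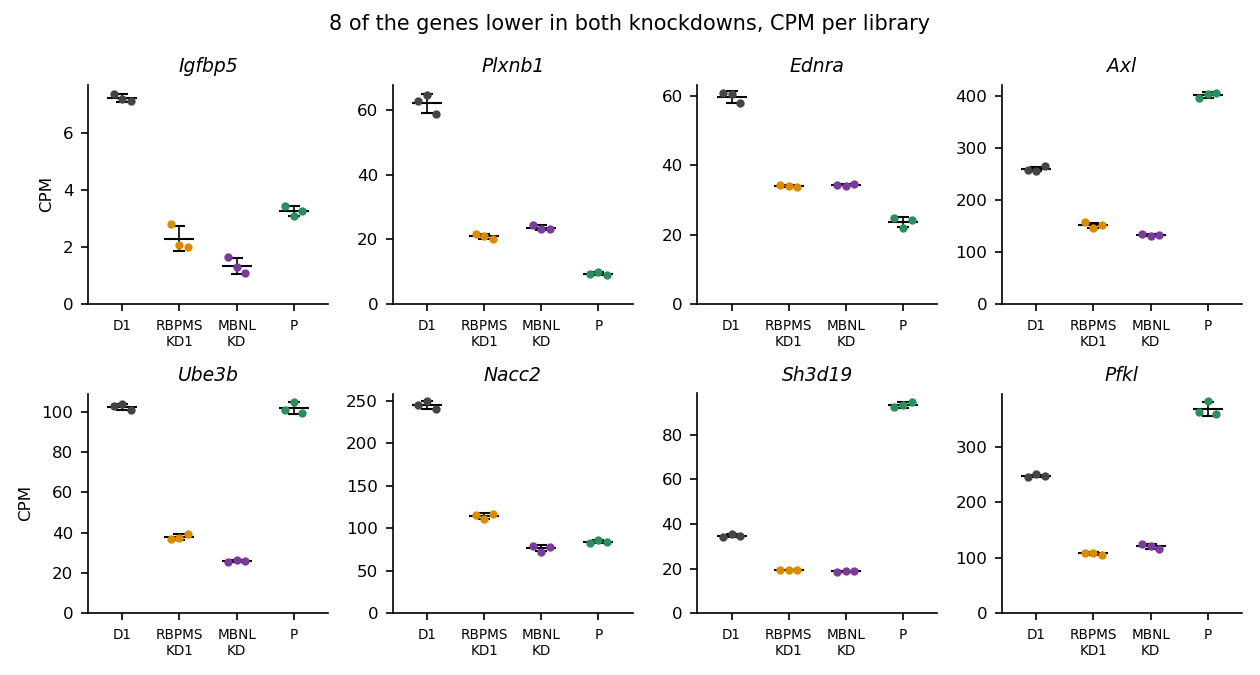
CPM (y axis, from 0) in each of the 3 libraries of D1, RBPMS KD1, MBNL KD and P for 8 lowered genes, with the mean and SD as bars. Both knockdowns lie under D1 in all panels, and P is under D1 for Igfbp5, Plxnb1, Ednra and Nacc2, at D1 for Ube3b and above D1 for Axl, Sh3d19 and Pfkl.

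The question of how these genes stand in proliferative cells was asked over all of them. Of the 126 raised genes, 38 (30.2%) were called higher and 37 (29.4%) lower in P than in D1, and 51 were not called. Ratios of P to D1 ran from 0 to 26.7 with a median of 1.00. The mean of P was beyond both knockdowns for 28 raised genes, between the knockdowns for 10, between D1 and the knockdowns for 26 and on the other side of D1 for 62. These places rest on plain CPM. All P libraries were above every D1 library for 57 raised genes (45.2%) and under them for 52 (41.3%), while over the genes with the count minimum this held for 52.5% and 33.6%. Of the 35 lowered genes, 16 (45.7%) were called lower, 2 (5.71%) higher and 17 were not called, with a median ratio of 0.710. Over all 16814 genes tested, 16.4% were called higher and 11.2% lower, and the shares among genes with the count minimum were given above.

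The median fitted log2 fold change of P against D1 was -0.16 over the raised genes and -0.66 over the lowered genes, beside -0.048 over the genes with the count minimum. These fits use TMM scaling. On plain CPM the median log2 ratio of P to D1 over those genes was 0.12, so that ratios given in CPM sit higher than the fitted values. Under quantile normalization 30 raised genes were called higher and 48 lower in P, so that their split moved with the scaling. The calls over all genes tested moved the same way, from 16.4% higher and 11.2% lower to 13.4% and 15.9%, and those over genes with the count minimum were 6.42% and 11.8%. Alternatives were followed gene by gene only for the 57 members named by rule. Besides Mcf2, those called lower in P under this scaling alone were Akr1c19 at a log2 fold change of -1.18, S100a14 at -1.22 and LOC120102879 at -1.07. For the other genes given here, calls under this scaling were not followed.

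**Figure D5:**
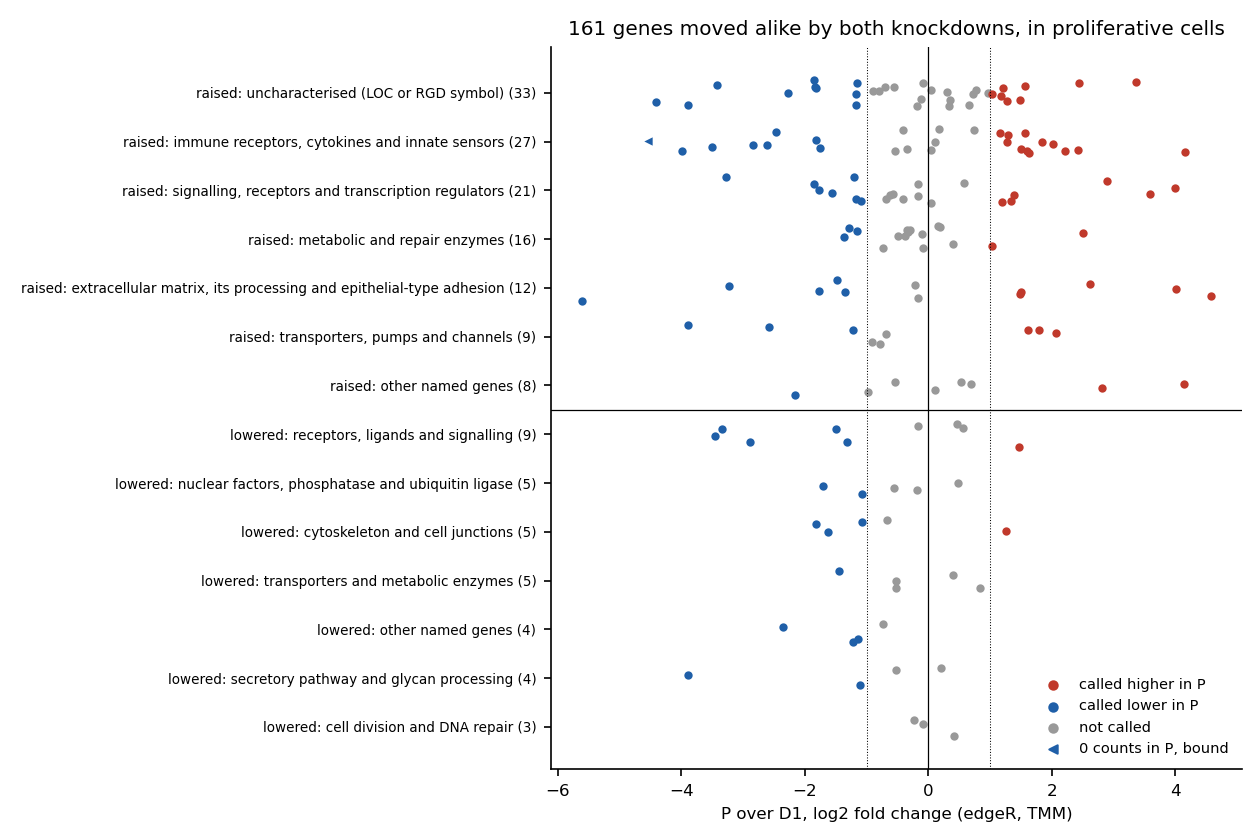
Fitted log2 fold change of P against D1 (x axis) for each of the 161 genes, in rows by role, with calls in red (higher) and blue (lower) and a triangle for Il1rapl1, which had a count of 0 in P and is drawn at its bound. Every row of raised genes holds calls in both directions, while among the lowered genes Nxph4 and Sh3d19 are the calls to the right.

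The knockdowns were then set against each other. The choice of genes used the means of the same libraries, and requiring both ratios shapes how far the knockdowns can differ, so that these values are given as a description, and nothing is read from the counts. In the edgeR fit of MBNL KD against RBPMS KD1, 23 of the 126 raised genes were higher in MBNL KD (18.3%) and 3 were lower (2.38%) past the thresholds of a call, and among genes with the count minimum 3.39% and 5.18% were. The widest differences were in LOC102550162 (log2 fold change of 3.19 with an SE of 0.12), Olr1 (log2 fold change of 2.69 with an SE of 0.07), Il1rl1 (log2 fold change of 2.55 with an SE of 0.12) and Tfec (log2 fold change of 2.50 with an SE of 0.16). LOC102550162, an uncharacterised gene, had 0.698, 0.244 and 0.474 CPM in the D1 libraries and 1.13, 0.859 and 0.705 in those of RBPMS KD1. For LOC102550162 the MBNL KD libraries held 8.56, 8.39 and 8.44 and the P libraries 5.75, 5.34 and 5.23. MBNL KD stood apart from every other group, and the gene was lost as a member without D1 replicate 2 or RBPMS KD1 replicate 1.

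The genes lower in MBNL KD than in RBPMS KD1 were Ptprv (log2 fold change of -1.73 with an SE of 0.07), Gbp4 (log2 fold change of -1.21 with an SE of 0.09) and LOC102551884 (log2 fold change of -1.18 with an SE of 0.10). LOC102551884 had 1.29, 1.37 and 1.32 CPM in the D1 libraries and 6.34, 6.00 and 6.29 in those of RBPMS KD1. For LOC102551884 the MBNL KD libraries held 2.66, 2.58 and 3.28 and the P libraries 0.0915, 0.0230 and 0.0914. The 35 lowered genes were chosen from these same libraries, so that nothing is read from an absence of calls among them. None of the 35 was called in either direction by edgeR or DESeq2, beside 3.39% and 5.18% of genes with the count minimum called higher and lower by edgeR. At an unadjusted p under 0.05 in this contrast, 10 were higher and 14 lower in edgeR and 9 and 14 in DESeq2, with no share over all genes counted. Igfbp5 had a log2 fold change of -0.81 (SE 0.16) there and was called lower at -1.001 without MBNL KD replicate 1, with Nacc2 at -0.63 (SE 0.03) and Ednra at -0.03 (SE 0.04).

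Of 21 pathway lists, 9 held a raised or lowered gene, 19 genes in all (14 raised and 5 lowered). The other genes of these lists are given by their calls against D1. Over all genes tested, 3.06% were called higher and 1.62% lower in RBPMS KD1 and 6.10% and 4.14% in MBNL KD, and among genes with the count minimum the shares were 1.24% and 1.03% in RBPMS KD1 and 2.86% and 3.72% in MBNL KD. In P the shares were 16.4% higher and 11.2% lower over all genes tested, and 6.85% and 10.7% with the count minimum. Among interferon-stimulated genes besides Gbp4, Oas1b and Lgals9, 12 of 66 tested were higher and 0 lower in RBPMS KD1, with 2 higher and 5 lower of 64 in MBNL KD and 38 higher and 3 lower of 68 in P. Directly compared, 21 of 65 were lower in MBNL KD than in RBPMS KD1 and 1 was higher, whereas over all genes tested 6.03% were lower and 5.88% higher. Of these genes Gbp3, a guanylate-binding GTPase like Gbp4, was higher in both knockdowns, with fitted log2 fold changes of 1.16 and 1.22, but it had too few counts to be chosen.

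Among extracellular matrix genes besides Postn, Tnc, Aspn and Comp, 2 of 66 were higher in RBPMS KD1, namely Thbs2 and Col8a2, whereas MBNL KD had 9 higher and 1 lower of 66. In P, 14 of 72 were higher and 30 lower, beside 16.4% and 11.2% of all genes tested. Chemokine, cytokine and NF-kappaB target genes besides Cxcl1, Cxcl13 and Vcam1 were called higher for 1 of 26 in RBPMS KD1 and for 5 of 25 in MBNL KD, where 1 was lower, and in P 9 of 29 were higher and 6 lower. Glycolysis and hypoxia genes besides Pfkl and P4ha2 gave 1 higher and 0 lower of 27 in RBPMS KD1 and 0 higher and 3 lower of 27 in MBNL KD. Cell cycle genes besides Cenpf gave 0 higher and 1 lower of 41 in RBPMS KD1 and 1 higher and 6 lower of 41 in MBNL KD.

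Genes of the TGF-beta, BMP and Notch pathways besides Fst and Id1 gave 0 higher and 1 lower of 41 in RBPMS KD1 and 7 higher and 3 lower of 42 in MBNL KD. The related Id2 and Id3 were among the 7, with log2 fold changes of 1.504 and 1.15. For growth factors and receptors besides Igfbp5 and Axl, RBPMS KD1 had 4 higher and 1 lower of 58, and MBNL KD had 6 higher and 5 lower of 57. For vascular receptors besides Ednra, RBPMS KD1 had 2 higher and 1 lower of 46, and MBNL KD had 8 higher and 2 lower of 47. For ion channels and pumps besides Atp2a3, RBPMS KD1 had 1 higher and 3 lower of 45, and MBNL KD had 5 higher and 8 lower of 46.

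In the order of RefSeq genes, 20 of the 115 placed raised genes and 6 of the 35 lowered genes overlapped another expressed gene. Akr1c12 with Akr1c19 and Ankrd52 with Slc39a5 were the only neighbours among the 150 genes placed. Leaving out each of the 9 libraries used in the choice, 94 of the 126 raised genes and 28 of the 35 lowered genes were chosen each time. Of the genes named above, Hap1, Ms4a7, Ripor2, Socs3, Spag5 and Xrcc2 were lost without D1 replicate 1. Aspn, B4galt2, Cxcl1, Fcgr2a, Il10rb, Inha, LOC102550162, Mcoln3, Ms4a6c, Reep6 and Socs3 were lost without D1 replicate 2. Axl, Dpyd, Hap1, Naip5, Ptprv, Reep6, Ripor2, Sting1 and Xrcc2 were lost without D1 replicate 3. B4galt2, Cxcl1, Fcgr2a, Inha, LOC102550162, Lgals9, Naip5 and Socs3 were lost without RBPMS KD1 replicate 1. Axl, Dpyd, Hap1, Ms4a6c, Ms4a7, Ptpn22, Ripor2 and Socs3 were lost without RBPMS KD1 replicate 2. B4galt2, Cemip, Dpyd, Ms4a6c, Ppp2r2c and Ripor2 were lost without RBPMS KD1 replicate 3. Aspn, Atp2a3, Fcgr2a, Il10rb, Oas1b and Xrcc2 were lost without MBNL KD replicate 1. Atp2a3, Fcgr2a, Il1rapl1 and Reep6 were lost without MBNL KD replicate 2. Reep6 was lost without MBNL KD replicate 3. Under TMM scaling all 35 lowered genes and 111 raised genes stayed.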

How the data were processed

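Poly(A) RNA-seq of 12 PAC1 libraries, 3 per group, was used as a table of counts per gene that the authors deposited. Per the labels and the study's methods, reads were subsampled with seqtk, aligned with STAR 2.7.11b to mRatBN7.2 and counted with featureCounts. The strand setting and the counting of mates are not given in the sources used here. The authors also deposited a table of signal values, made with noisyR and quantile normalization, which served as an alternative. Columns were matched to samples by their names.

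CPM was computed from column sums. The edgeR 4.0.16 quasi-likelihood test (R 4.3.3, filterByExpr, TMM, Benjamini-Hochberg adjustment over all genes tested) was fitted to the 6 libraries of a comparison, and a gene was called past an adjusted p of 0.05 and a log2 fold change of 1 in size. With 3 libraries against 3, an exact permutation test of 1 gene cannot go below a two-sided p of 0.1, so none was used. Scripts were tested on simulated data. Intervals and limits cover counting error only.

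The members and the gene lists were chosen with earlier results of these data known, and roles were assigned after the values were seen. Genes named by rule were the 10 strongest by their weaker ratio in each direction, every member of a pathway list, the 4 largest calls each way in P and between the knockdowns, genes at the limits, neighbours and the siRNA targets. Some of these are given as ratios alone. All other members, and the genes shown library by library, were picked for their roles after their values were seen. Promoters and gene names came from RefSeq (GRCr8), which held 150 of the 161 genes and promoters of 133. GRCr8 coordinates are given for promoters only, since it differs from the build of the counts. Alternatives covered scaling, filters on low counts, DESeq2 1.42.0, limma 3.58.1 on the normalised values, 1 fit of all libraries, halved counts, a replicate block and leaving out each library.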

Additional observations from a re-analysis of the deposited data

How the results depend on the processing

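The choice of genes moved with its settings. The 126 raised genes became 76 with the authors' normalised values (72 shared), 60 with ratios of 2 and 0.5, 266 with a count minimum of 50, 52 with a minimum of 1000, and 122 to 136 when 1 library was left out. The 35 lowered genes became 13 with ratios of 2 and 0.5, 45 with TMM scaling, and 34 to 39 when 1 library was left out. In P against D1, 25 raised genes were called higher and 36 lower by limma on the normalised values, beside 6.15% and 11.1% of genes with the count minimum. With no fold threshold 53 raised genes were higher and 58 lower, and 9 lowered genes were higher and 25 lower, beside 38.5% and 46.0% of those genes. Leaving out 1 library gave 37 to 38 raised genes higher, 36 to 39 raised genes lower and 16 lowered genes lower. In MBNL KD against RBPMS KD1, no fold threshold gave 66 raised genes higher and 29 raised genes lower. Of the 35 lowered genes, 10 were higher and 14 lower there. Among the 11763 genes with the count minimum, 4703 were higher and 4860 (41.3%) lower in that comparison. Over all genes tested the shares were 35.1% and 34.5%. Without MBNL KD replicate 1 the lowered gene Igfbp5 was called lower, so that leaving out 1 library gave 0 to 1. Leaving out 1 library gave 21 to 23 raised genes higher there. The replicate block, whose numbers did not pair the samples (deviations of same-numbered libraries correlated at -0.022 to 0.021), left the counts at 38, 37, 2 and 16 in P and at 23, 3, 0 and 0 between the knockdowns. Of 1706 alternative values for the 57 members named by rule 1672 kept their direction and call, 8 lost and 5 gained a call and 21 reversed. The other genes given in the text were not followed in this way. Olr1 in P against D1 was -0.32 with limma, -0.42 with quantile normalization and -0.12 to 0.18 with 1 library left out (below 0 without D1 replicate 2 or P replicate 2 or 3), and Ripor2 was -0.37 to 0.056 with 1 library left out (above 0 without D1 replicate 2). In MBNL KD against RBPMS KD1, Cxcl1 was -0.083 to 0.18 with 1 library left out, Ednra was 0.031 with limma and 0.033 with quantile normalization, Fst 0.0047 and 0.0050, Nckap5 -0.018 and -0.016 and Tnc 0.079 and 0.089. Tnc was 0.0031 in the fit of all libraries. With 1 library left out Nckap5 was -0.0064 to 0.031, Slc19a1 -0.090 to 0.025, Socs3 -0.0090 to 0.056 and Tnc -0.033 to 0.0071. The causes were not tested.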
